A study of Mus musculus with 14 samples.

Results

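Type 1 alveolar cell genes were followed in the lungs of mechanically ventilated and control mice through 10 genes that mark this cell: Ager, Pdpn, Hopx, Cav1, Cav2, Cldn18, Rtkn2, Emp2, Clic5 and Akap5. All probes whose gene symbol, current or older, is 1 of these names were taken. Such probes were found for 7 of the 10 genes, 11 probes of the 19621 on the array, which names 13923 genes in all. No probe of the array names Hopx, Rtkn2 or Emp2, so these 3 genes have no value here. Total RNA of lung tissue from 14 adult mice was hybridized to single-colour CodeLink arrays, 1 array per animal. The 4 groups were 3 wild-type (C57/BL6) controls, 4 wild-type mice ventilated with a tidal volume of 10 ml/kg for 8 hours, 3 controls lacking Jnk1 (jnk1-/-) and 4 jnk1-/- mice given the same ventilation. All mice were on the C57/BL6 background, the jnk1-/- mice lacked c-Jun-NH2-terminal kinase-1 in every cell, and all received ketamine and acepromazine. Controls were killed directly after anesthesia, whereas ventilated mice had in addition a tracheal cannula, pancuronium and 8 hours of anesthesia, and these cannot be told apart from ventilation itself.

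The type 1 alveolar cell is the thin, flat cell that covers most of the gas exchange surface and forms, with the capillary endothelium, the barrier between air and blood. It is known for stretching with each breath, for its many caveolae, and for its tight junctions, which hold back fluid and protein. It does not secrete surfactant, which is the work of the type 2 alveolar cell. Ager encodes the receptor for advanced glycation end products, RAGE, and Pdpn encodes podoplanin, a membrane glycoprotein, and both are classical surface markers of the cell. Cav1 and Cav2 encode the caveolins that coat caveolae, Cldn18 a claudin of the tight junction, Clic5 a chloride intracellular channel protein tied to the actin cytoskeleton, and Akap5 an anchoring protein that holds protein kinase A and calcineurin at the membrane.

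Values are log2 intensities after normalization between arrays, and levels of different genes were not compared with each other. All 11 probes lay above the lowest deposited value, and above the floor of the authors' own normalized table, on all 14 arrays. Mapk8, the gene that encodes JNK1, was dim on every array, at 2.68 to 3.24 in wild-type controls, 1.98 to 4.43 in ventilated wild-type lungs, −0.33 to 2.93 in jnk1-/- controls and 1.34 to 3.98 in ventilated jnk1-/- lungs. Between jnk1-/- and wild-type controls it differed by −1.47 with a standard error of 0.88 (adjusted p = 0.374 from limma), so this probe checks the genotype little. Over the brighter probes, the SD of the difference between replicates 2 and 3 of the wild-type controls was 0.312, while replicate 1 differed from them by 0.597 and 0.507. For replicates 1 and 2 of the jnk1-/- controls it was 0.310, while replicate 3 differed from them by 0.681 and 0.662. Whether the arrays of these close pairs are independent was not tested, and for type 1 cell genes, related genes and named markers a call that was lost when each close pair was averaged is given with its adjusted p. The jnk1-/- control lungs also had high levels of skeletal muscle markers, with a summed log2 level of 12.93 to 13.44 against 7.74 to 8.99 in the other 3 groups. Their stratified squamous epithelium markers summed to 11.74 to 12.87, against 8.06 to 9.47 elsewhere. Every comparison that uses the jnk1-/- controls holds this difference too, and its part in the results below was not tested.

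The first question was whether type 1 cell genes changed following mechanical ventilation. In both genotypes all 7 measured genes had a lower mean in ventilated than in control lungs, and 1 of the 7, Akap5, passed an adjusted p of 0.05 in limma, where p-values were adjusted over all probes. Of all probes, 1.49% were called lower and 2.18% higher in wild-type lungs, and 5.02% lower and 6.73% higher in jnk1-/- lungs. The median log2 change of the 7 genes was −0.48 in wild-type lungs, against a median of 0.08 over all probes. The corresponding jnk1-/- medians were −0.44 and −0.04. The arrays of the 2 conditions did not overlap for 4 of 7 genes in wild-type lungs (Pdpn, Cldn18, Clic5 and Akap5), while 10.6% of all probes were lower and 11.3% higher in this way. For 2 of 7 genes (Cav2 and Akap5) they did not overlap in jnk1-/- lungs, where 11.2% of all probes were lower and 12.3% higher. At an unadjusted p under 0.05 there were 3 genes in wild-type and 4 in jnk1-/- lungs. In RNA of whole lung, fewer type 1 cells and less RNA per cell cannot be told apart.

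**Figure D1:**
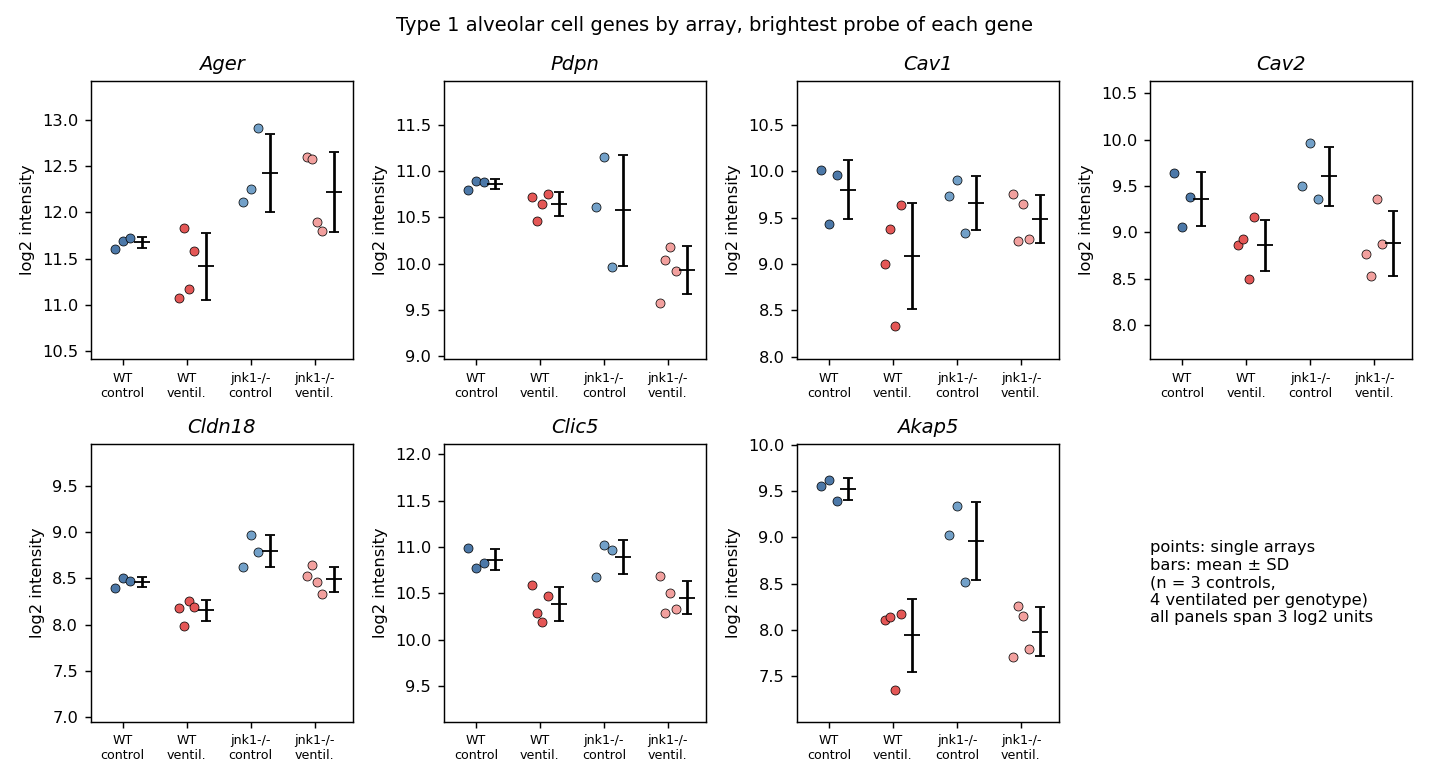
Log2 intensity of the brightest probe of each measured gene on the 14 arrays, by group, with the mean and SD of each group as a bar (3 controls and 4 ventilated mice per genotype). Akap5 shows the widest gap, with all 8 ventilated lungs at 8.26 or below and all 6 controls at 8.51 or above.

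Akap5 fell following ventilation in both genotypes. Its log2 intensity was 9.55, 9.62 and 9.39 in wild-type controls and 8.11, 8.14, 7.35 and 8.18 in ventilated wild-type lungs. In jnk1-/- controls it was 9.02, 9.34 and 8.51, and in ventilated jnk1-/- lungs 7.71, 8.26, 8.15 and 7.80. All 8 ventilated lungs were thus below all 6 control lungs, with jnk1-/- control replicate 3 the lowest control. In wild-type lungs the mean went from 9.52 ± 0.12 (SD, n = 3) to 7.94 ± 0.40 (SD, n = 4), a log2 change of −1.58 (standard error 0.26, adjusted p = 0.00734 from limma), which is 0.335 times the control level. The jnk1-/- mean went from 8.96 ± 0.42 (SD, n = 3) to 7.98 ± 0.26 (SD, n = 4), a log2 change of −0.98 (standard error 0.26, adjusted p = 0.0300 from limma), or 0.508 times the control level. The wild-type call held in 24 of 25 alternative analyses, the exception being the methods' t-test, which called 0 of 7 genes in either genotype. Over all probes that test called 9 in wild-type and 55 in jnk1-/- lungs. It was run here on this normalization and without the study's quality filter, so its counts are not those of the study. Leaving out an array of the other genotype, which is among the 25, cannot move the change itself, only its variance and the adjustment of p. The jnk1-/- call held in 17 of 25 and was lost without jnk1-/- control replicate 1 or 2 (adjusted p = 0.0899 and 0.116 from limma), without ventilated replicate 1 or 4 (adjusted p = 0.0692 and 0.0754 from limma), and with the close control pairs averaged, where the change was −0.87 (adjusted p = 0.125 from limma). It was also lost with only the arrays compared (adjusted p = 0.0990 from limma), by the methods' t-test, and with a block for the replicate number, which is given with the alternative analyses.

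Akap5 lies on chromosome 12 (GRCm38.p6, 76324617 to 76334517). Its promoter window, from 250 bases before to 50 bases after the RefSeq transcription start, is shown because it belongs to the 1 measured type 1 cell gene that passed the threshold in either genotype. Every window was searched on both strands for TGANTCA, the letters bound by AP-1, the factor whose c-Jun subunit JNK phosphorylates, and for CATTCC, the letters bound by TEAD factors. Letters in capitals would mark a match, and this window, chr12:76324641-76324940 on the plus strand, holds none.
Akap5 promoter: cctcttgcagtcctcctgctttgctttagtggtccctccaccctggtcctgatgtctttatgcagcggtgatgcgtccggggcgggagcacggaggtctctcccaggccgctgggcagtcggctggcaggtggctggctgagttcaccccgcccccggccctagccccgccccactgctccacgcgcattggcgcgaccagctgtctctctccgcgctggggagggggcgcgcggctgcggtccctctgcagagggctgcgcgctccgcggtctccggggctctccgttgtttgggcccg
The window is 70.67% G and C and holds 27 CpG sites, against medians of 52.67% and 7 over the 32851 promoter windows of the RefSeq table. AP-1 letters occur in 7.808% of all windows and TEAD letters in 14.66%. The absence of these letters here says only that they are not in these 300 bases.

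Ager and Pdpn, the surface markers, did not pass the threshold in either genotype. Ager (chromosome 17, 34597460 to 34600937) was 11.61, 11.69 and 11.73 in wild-type controls and 11.07, 11.84, 11.17 and 11.58 in ventilated wild-type lungs. Its values were 12.11, 12.26 and 12.91 in jnk1-/- controls and 12.60, 12.58, 11.90 and 11.80 in ventilated jnk1-/- lungs. The conditions overlapped in both genotypes, since ventilated replicate 2 of the wild-type lungs was above every wild-type control, and ventilated replicates 1 and 2 of the jnk1-/- lungs were above 2 of 3 controls. The log2 change of Ager was −0.26 (95% interval −0.87 to 0.35, adjusted p = 0.661 from limma) in wild-type lungs and −0.21 (−0.81 to 0.40, adjusted p = 0.712 from limma) in jnk1-/- lungs. Leaving out 1 array, the wild-type change ran from −0.40 to −0.15, and the jnk1-/- change was 0.036 without control replicate 3, so its sign rests on that array.

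Pdpn (chromosome 4, 143267409 to 143299564) was 10.80, 10.89 and 10.88 in wild-type controls and 10.72, 10.46, 10.64 and 10.75 in ventilated wild-type lungs. In jnk1-/- controls it spread over 10.61, 11.15 and 9.96, and in ventilated jnk1-/- lungs it was 9.58, 10.05, 10.19 and 9.92. All 4 ventilated wild-type lungs lay just below the controls, whereas in jnk1-/- lungs control replicate 3 lay inside the range of the ventilated lungs. The log2 change was −0.22 (standard error 0.25, adjusted p = 0.684 from limma) in wild-type and −0.64 (standard error 0.25, adjusted p = 0.118 from limma) in jnk1-/- lungs. Without jnk1-/- control replicate 3 Pdpn passed the threshold in jnk1-/- lungs, with a change of −0.95, whereas without control replicate 2 the change was −0.35 (adjusted p = 0.400 from limma).

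Cav1 and Cav2 are neighbours on chromosome 6, with 17204 bases between them. Cav1 (17306335 to 17341328) was 10.01, 9.43 and 9.96 in wild-type controls and 8.99, 9.38, 8.33 and 9.63 in ventilated wild-type lungs. Cav1 in jnk1-/- lungs was 9.73, 9.90 and 9.34 in controls and 9.76, 9.25, 9.64 and 9.27 following ventilation. Its conditions overlapped in both genotypes, and ventilated wild-type replicate 3 was the lowest of the 14 arrays. The log2 change was −0.72 (standard error 0.30, adjusted p = 0.202 from limma) in wild-type and −0.18 (standard error 0.30, adjusted p = 0.777 from limma) in jnk1-/- lungs. It was −0.465 in wild-type lungs without ventilated replicate 3, and in jnk1-/- lungs −0.053 without control replicate 2 and −0.34 without control replicate 3.

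Cav2 (17281185 to 17289130) was 9.64, 9.06 and 9.38 in wild-type controls and 8.86, 8.92, 8.49 and 9.16 in ventilated wild-type lungs. Its jnk1-/- values were 9.50, 9.96 and 9.36 in controls and 8.76, 8.53, 9.36 and 8.88 following ventilation. Ventilated replicate 4 lay above the lowest wild-type control, while in jnk1-/- lungs ventilated replicate 3 came up to, but stayed under, the lowest control. The log2 change was −0.50 (standard error 0.25, adjusted p = 0.285 from limma) in wild-type and −0.72 (standard error 0.25, adjusted p = 0.0804 from limma) in jnk1-/- lungs. Of the 2 probes that name Cav2 these values are from the brighter. The dimmer one, with a mean of 4.58 over the arrays, changed sign in jnk1-/- lungs, where its log2 change was 0.15 (standard error 0.34, adjusted p = 0.847 from limma).

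The promoter windows of these neighbours are shown for comparison with that of Akap5, and because Cav2 is the only listed gene with a match. The Cav2 window is chr6:17280935-17281234 and the Cav1 window chr6:17306085-17306384 (GRCm38.p6, plus strand), and capitals mark the AP-1 letters.
Cav2 promoter: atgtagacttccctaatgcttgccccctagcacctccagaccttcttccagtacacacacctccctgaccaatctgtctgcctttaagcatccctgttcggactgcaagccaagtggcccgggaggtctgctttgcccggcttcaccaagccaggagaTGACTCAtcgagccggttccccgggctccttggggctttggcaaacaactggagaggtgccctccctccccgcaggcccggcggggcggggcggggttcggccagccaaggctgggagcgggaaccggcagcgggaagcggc
Cav1 promoter: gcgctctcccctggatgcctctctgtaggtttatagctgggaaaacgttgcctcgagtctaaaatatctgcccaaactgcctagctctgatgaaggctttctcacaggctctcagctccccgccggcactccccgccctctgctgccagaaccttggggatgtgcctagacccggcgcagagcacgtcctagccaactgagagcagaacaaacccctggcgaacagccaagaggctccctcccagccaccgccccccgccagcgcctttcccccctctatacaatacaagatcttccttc
Over the 12 windows that RefSeq lists for 9 of the 10 genes, 1 window, that of Cav2, held AP-1 letters, starting at base 159, and none held TEAD letters. A match is a description of the sequence and not a bound site. The genes and motifs were chosen for display after their values were seen.

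Caveolins are also abundant in capillary endothelium, so endothelial markers were read beside them. Of 8 measured endothelial markers of 10, 1 fell in wild-type lungs, Kdr, the main VEGF receptor of endothelium, with a log2 change of −0.98 (adjusted p = 0.0224 from limma), and 1 in jnk1-/- lungs, Clec14a, with −1.04 (adjusted p = 0.0139 from limma). With the close control pairs averaged their adjusted p was 0.0921 and 0.0627. The median log2 change of the 8 markers was −0.57 and −0.38. The summed log2 level of the endothelial markers was 13.51 to 13.63 in wild-type controls and 12.75 to 13.40 following ventilation, and 13.13 to 13.27 and 12.70 to 13.35 in jnk1-/- lungs. Cdh5 was at the authors' floor on 11 of 14 arrays. The part of endothelial RNA in the caveolin values was not tested.

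Cldn18 and Clic5 stood lower following ventilation by similar amounts in both genotypes, without passing the threshold. Cldn18 (chromosome 9, 99690796 to 99717267) was 8.40, 8.50 and 8.47 in wild-type controls and 8.18, 7.99, 8.25 and 8.19 in ventilated wild-type lungs. Its jnk1-/- values were 8.63, 8.97 and 8.79 in controls and 8.52, 8.64, 8.45 and 8.33 following ventilation. In wild-type lungs all ventilated values were below all controls, and in jnk1-/- lungs ventilated replicate 2 was just above the lowest control. The log2 change of Cldn18 was −0.30 (standard error 0.15, adjusted p = 0.270 from limma) in wild-type and −0.31 (standard error 0.15, adjusted p = 0.205 from limma) in jnk1-/- lungs.

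Clic5 (chromosome 17, 44134762 to 44280169) was 10.99, 10.77 and 10.82 in wild-type controls and 10.59, 10.28, 10.19 and 10.47 in ventilated wild-type lungs. Its jnk1-/- values were 10.68, 11.02 and 10.97 in controls and 10.68, 10.29, 10.50 and 10.33 following ventilation. The wild-type groups did not overlap, and in jnk1-/- lungs ventilated replicate 1 reached control replicate 1. The log2 change was −0.48 (standard error 0.17, adjusted p = 0.136 from limma) in wild-type and −0.44 (standard error 0.17, adjusted p = 0.113 from limma) in jnk1-/- lungs. The other probe of Cldn18 changed by −0.13 and −0.16, and the other 2 probes of Clic5 by −0.30 and −0.24 and by −0.55 and −0.07, in wild-type and jnk1-/- lungs. None of these 3 probes passed the threshold.

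**Figure D2:**
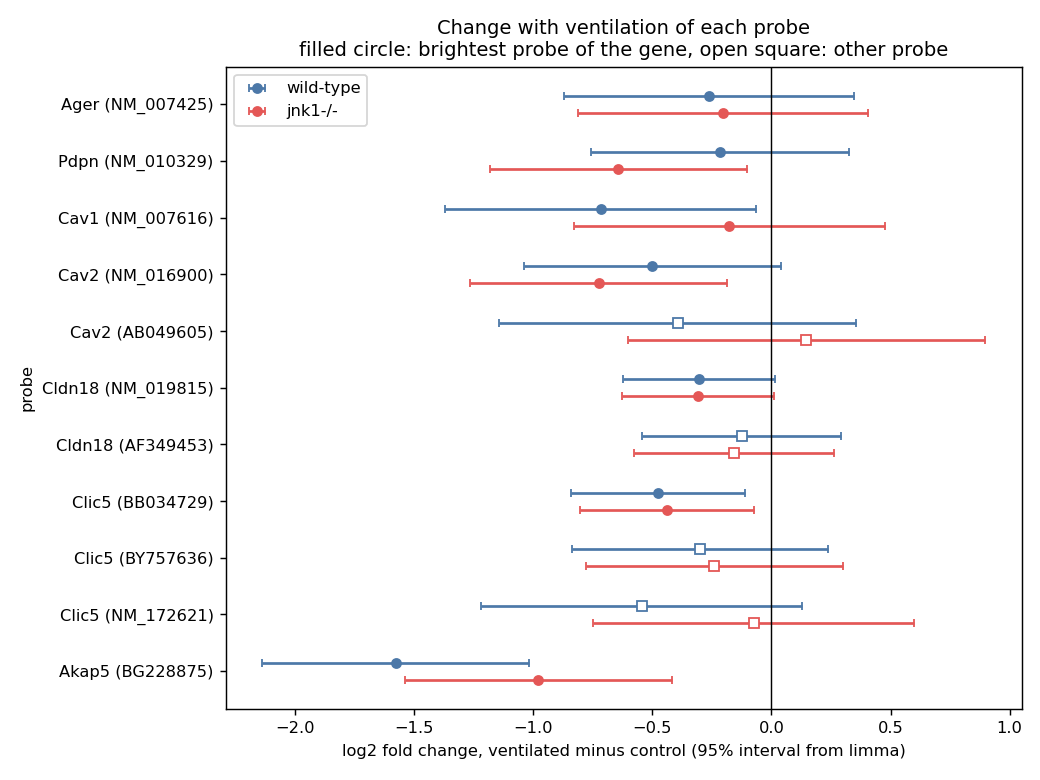
Log2 fold change with ventilation, ventilated minus control, of the 11 probes in wild-type (blue) and jnk1-/- lungs (red), with 95% intervals from limma. Filled circles are the brightest probe of a gene and open squares its other probes. All points but the dimmer Cav2 probe in jnk1-/- lungs lie below 0, and the intervals of Akap5 lie farthest from it.

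Averaged over the 7 genes, each array was set against the wild-type control mean. The mean deviation was 0.07, −0.08 and 0.01 in wild-type controls and −0.57, −0.50, −0.87 and −0.37 in ventilated wild-type lungs. The jnk1-/- values were −0.04, 0.30 and −0.10 in controls and −0.42, −0.42, −0.33 and −0.60 following ventilation. All 8 ventilated lungs were below all 6 controls, with wild-type ventilated replicate 3 the lowest and jnk1-/- control replicate 2 the highest. The 7 genes count equally in this mean, which is a description with no test. Akap5, which had the largest fall of the 7 in both genotypes, is part of it, and the mean was not taken without Akap5. In the same lungs 4 of 5 measured neutrophil markers rose in wild-type and 5 of 5 in jnk1-/- lungs, and their summed log2 level went from 10.92 to 12.10 in wild-type controls to 14.05 to 14.61, and from 10.04 to 10.64 in jnk1-/- controls to 13.27 to 14.82. The part of incoming cells in the lower values of type 1 cell genes was not tested.

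**Figure D3:**
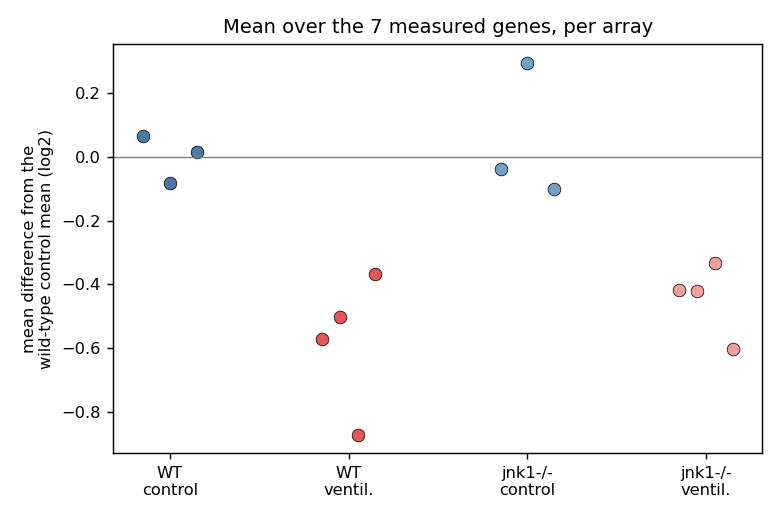
Mean difference from the wild-type control mean, on the log2 scale, over the 7 measured genes, with 1 point for each array and the groups side by side. The 8 ventilated lungs lie between −0.87 and −0.33, under the 6 controls, which lie between −0.10 and 0.30.

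The second question was whether type 1 cell genes differed between the genotypes. In control lungs 0 of 7 genes passed the threshold in limma, while 4.03% of all probes did (1.87% higher and 2.16% lower), and 1 of 7 had an unadjusted p under 0.05. Ager, the RAGE receptor, was higher in all 3 jnk1-/- controls than in all 3 wild-type controls, by 0.75 (standard error 0.30, adjusted p = 0.187 from limma). Cldn18 was also higher in all 3, by 0.34 (standard error 0.16, adjusted p = 0.251 from limma), and Akap5 was lower in all 3, with a difference of −0.56 (standard error 0.27, adjusted p = 0.270 from limma). The other probe of Cldn18 differed by only 0.09 (adjusted p = 0.842 from limma), and its groups overlapped. Of all probes, 13.5% were higher and 13.1% lower without overlap. Without jnk1-/- control replicate 3 the difference of Akap5 was −0.34 (adjusted p = 0.589 from limma). The other 4 genes differed by between −0.28 (Pdpn) and 0.25 (Cav2, which ran from 0.067 to 0.39 when 1 array was left out). Markers of type 2 cells summed to 15.58 to 15.93 in jnk1-/- controls and 15.21 to 15.57 in wild-type controls, and those of endothelium to 13.13 to 13.27 and 13.51 to 13.63, and the part of either in these differences was not tested.

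Following ventilation 0 of 7 genes differed between the genotypes in limma, while 0.525% of all probes did (0.240% higher and 0.285% lower), and 3 of 7 had an unadjusted p under 0.05. The latter were Ager, Pdpn and Cldn18, at places 638, 646 and 1400 of the 19621 probes ordered by p. Ager was again higher in jnk1-/- lungs, by 0.80 (standard error 0.26, adjusted p = 0.282 from limma), with 3 of 4 jnk1-/- lungs above all wild-type lungs. Pdpn was lower in all 4 jnk1-/- lungs, with a difference of −0.71 (standard error 0.23, adjusted p = 0.284 from limma), and Cldn18 higher in all 4, by 0.33 (standard error 0.14, adjusted p = 0.430 from limma). The other probe of Cldn18 differed by only 0.06 (adjusted p = 0.963 from limma), and its groups overlapped. Of all probes, 3.10% were higher and 3.27% lower without overlap. Akap5 differed by 0.04 (95% interval −0.48 to 0.55) after ventilation. The methods' t-test also called 0 of 7 genes in both comparisons between genotypes.

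The third question was whether the response to ventilation depended on JNK1. The difference between the genotypes' log2 changes passed the threshold in limma for 0 of 7 genes, at an unadjusted p under 0.05 for 0 of 7, and for 0.377% of all probes (0.194% higher and 0.183% lower). For Akap5 it was 0.60 (95% interval −0.19 to 1.39, adjusted p = 0.512 from limma), which includes no difference as well as a much smaller fall in jnk1-/- lungs. For Cav1 it was 0.54 (−0.38 to 1.46) and for Pdpn −0.43 (−1.19 to 0.34). These values moved with single arrays: Akap5 was 0.38 without jnk1-/- control replicate 3, Cav1 0.29 without wild-type ventilated replicate 3, and Pdpn −0.14 without jnk1-/- control replicate 2 and −0.73 without control replicate 3. The intervals of Ager, Cav2, Cldn18 and Clic5 were −0.81 to 0.92, −0.99 to 0.54, −0.46 to 0.45 and −0.48 to 0.55, so these data do not show that the 2 genotypes responded alike.

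Genes linked by function or family to the type 1 cell genes moved in both directions. The 6 lists of such genes held 14, 6, 7, 4, 10 and 8 measured genes, and were chosen with earlier results of these data known. Over these lists, 10 genes passed the threshold in wild-type lungs, 6 higher and 4 lower, and 15 in jnk1-/- lungs, 10 higher and 5 lower. Of all probes, 3.66% passed in wild-type and 11.7% in jnk1-/- lungs. The wild-type count was 2 without control replicate 2 or 3, and 6 without ventilated replicate 1 or 2. The jnk1-/- count was 9 without control replicate 1 and 6 without control replicate 2. With the close control pairs averaged the counts were 2 (Tspan8 and S100a8) and 5 (Krt7, S100a8, Clic4, Akap12 and Tead1).

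Among 14 measured of 22 further genes linked to type 1 cells, 1 fell in wild-type lungs, and 3 rose and 1 fell in jnk1-/- lungs. Tspan8, a tetraspanin of epithelial membranes, was 11.69, 11.64 and 11.58 in wild-type controls and 10.17, 10.39, 10.52 and 10.21 following ventilation. These groups were far apart, with a log2 change of −1.31 (adjusted p = 0.00621 from limma) that held in 24 of 25 alternative analyses. Tspan8 fell by 0.78 in jnk1-/- lungs as well (adjusted p = 0.0297 from limma). Krt7, a keratin of simple epithelia, rose by 0.92 (adjusted p = 0.00539 from limma) in jnk1-/- lungs, from 12.05, 12.26 and 12.25 to 13.12, 12.81, 13.34 and 13.18. It was 12.67, 13.08 and 12.97 in wild-type controls, above every jnk1-/- control, and changed by 0.16 there (adjusted p = 0.659 from limma). Between jnk1-/- and wild-type controls Krt7 differed by −0.72 (adjusted p = 0.0463 from limma), a call that held in 9 of 25 alternative analyses. With the close control pairs averaged the adjusted p of this difference was 0.264. Lmo7, an adherens junction protein, rose by 1.13 (adjusted p = 0.0197 from limma) and Lama3, a laminin chain of epithelial basement membranes, by 0.70 (adjusted p = 0.0433 from limma) in jnk1-/- lungs. For both, all jnk1-/- controls lay below all wild-type controls, without passing the threshold. Lmo7 was 11.72 to 12.31 against 12.67 to 13.44, and 12.59 to 13.58 in ventilated jnk1-/- lungs. Lama3 was 8.75 to 8.95 against 9.06 to 9.59, and 9.16 to 9.89 in ventilated jnk1-/- lungs. In jnk1-/- lungs the call of Krt7 held in 23 of 25 alternative analyses, Lmo7 in 20, Tspan8 in 17 and Lama3 in 7. With the close control pairs averaged the adjusted p of Lmo7, Tspan8 and Lama3 was 0.0543, 0.127 and 0.141. The median log2 change of the 14 genes was −0.15 in wild-type and 0.38 in jnk1-/- lungs, and Aqp5, a water channel of the alveolus, had −0.09 and 0.31.

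Of the tight junction genes read beside Cldn18, those that passed the threshold rose, and which cells their RNA came from was not tested. Of 7 measured genes of 11, 3 rose in wild-type and 2 in jnk1-/- lungs, and none fell. Cldn4, a claudin that tightens the alveolar barrier, was 4.89, 5.10 and 5.24 in wild-type controls and 7.34, 8.48, 9.49 and 7.99 following ventilation, and 5.35, 5.21 and 4.84 against 6.21, 7.72, 9.19 and 7.66 in jnk1-/- lungs. Its groups did not overlap in either genotype, with log2 changes of 3.24 (adjusted p = 0.0140 from limma) and 2.56 (adjusted p = 0.0189 from limma). Cldn7 rose by 0.88 (adjusted p = 0.0140 from limma) and 0.61 (adjusted p = 0.0328 from limma), and Cldn3 by 0.75 (adjusted p = 0.0252 from limma) in wild-type lungs, against 0.46 (adjusted p = 0.0821 from limma) in jnk1-/- lungs. Both are claudins of lung epithelium. In wild-type lungs the calls of Cldn4, Cldn7 and Cldn3 held in 22, 19 and 16 of 25 alternative analyses, and in jnk1-/- lungs those of Cldn4 and Cldn7 in 20 and 15. All were lost with the close control pairs averaged, at an adjusted p of 0.0744, 0.0905 and 0.0965 in wild-type and 0.0695 and 0.111 in jnk1-/- lungs.

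In the caveolae list 1 of 6 measured genes of 7 fell in each genotype. This was Cavin2, a coat protein of caveolae, at 11.07, 10.21 and 10.62 in wild-type controls and 9.41, 9.61, 8.70 and 9.74 following ventilation, and at 10.47, 10.78 and 10.56 against 9.07, 8.99, 9.87 and 9.40 in jnk1-/- lungs. All ventilated values lay below all controls. Its log2 change was −1.26 (adjusted p = 0.0402 from limma) and −1.27 (adjusted p = 0.0191 from limma), with the wild-type call held in 12 of 25 alternative analyses and the jnk1-/- call in 19. With the close control pairs averaged its adjusted p was 0.110 and 0.0683. Cavin1 and Cavin4 were at the authors' floor on 13 and 14 of 14 arrays and have no usable value.

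Within the protein families of the members, relatives of the same gene changed in opposite directions. Akap12, an anchoring protein like Akap5, rose by 1.38 (adjusted p = 0.0140 from limma) in wild-type lungs, from 8.88, 8.58 and 8.69 to 10.13, 9.63, 10.49 and 10.12. It also rose in jnk1-/- lungs, by 1.45 (adjusted p = 0.00472 from limma), from 9.20, 8.79 and 8.45 to 10.03, 10.71, 10.35 and 9.98. The 8 ventilated lungs were above all 6 controls for Akap12 and below all 6 for Akap5. Clic4 rose by 1.11 (adjusted p = 0.0140 from limma) and 1.05 (adjusted p = 0.00791 from limma), while Clic3 fell by 0.88 (adjusted p = 0.0472 from limma) and 0.97 (adjusted p = 0.0154 from limma), both relatives of Clic5. Emp3, a relative of the unmeasured Emp2, fell by 0.74 (adjusted p = 0.0175 from limma) in jnk1-/- lungs. Its jnk1-/- controls, at 9.55 to 9.93, lay above the wild-type controls at 9.10 to 9.34, without passing the threshold. Ventilated jnk1-/- lungs were at 8.85 to 9.16. In wild-type lungs the calls of Akap12 and Clic4 held in 20 of 25 alternative analyses each and that of Clic3 in 11, with an adjusted p of 0.0744, 0.0854 and 0.185 when the close control pairs were averaged. The jnk1-/- calls held in 24, 23 and 20, and that of Emp3 in 20, and averaging the close pairs ended those of Clic3 and Emp3 (adjusted p = 0.0615 and 0.0547 from limma). Of the 10 genes on this list, which also holds Clec1b, not a relative of a member, 2 rose and 1 fell in wild-type lungs. In jnk1-/- lungs 2 rose and 3 fell, the third being Clic6 at −0.82 (adjusted p = 0.0353 from limma). With the close control pairs averaged the adjusted p of Clic6 was 0.127.

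**Figure D4:**
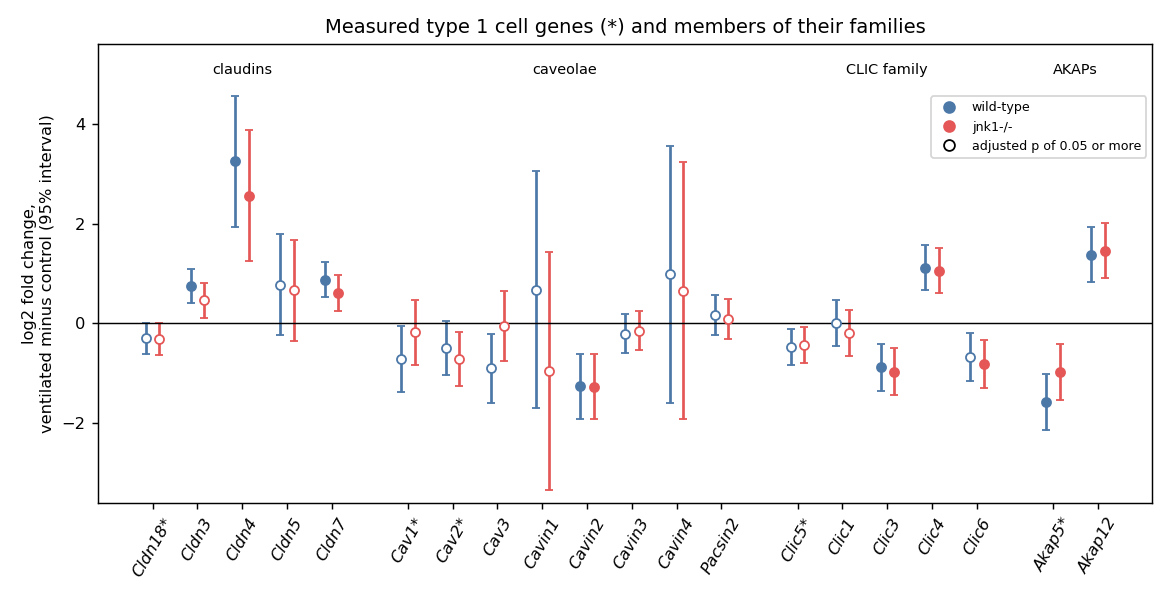
Log2 fold change with ventilation, with 95% intervals from limma, of the measured type 1 cell genes (marked *) beside related genes, in wild-type (blue) and jnk1-/- lungs (red). Filled points passed an adjusted p of 0.05. Akap5 and Akap12 lie on opposite sides of 0, as do Clic3 and Clic4, and Cldn4 has the highest change of the genes shown, while Cavin1 and Cavin4, at the authors' floor on 13 and 14 arrays, have the widest intervals.

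Of the ligands of RAGE, the product of Ager, 1 of 4 measured of 6 rose in each genotype. This was S100a8, which neutrophils also make in large amounts and which is on the neutrophil list as well, with log2 changes of 2.38 (adjusted p = 0.0143 from limma) and 3.15 (adjusted p = 0.00152 from limma). Among 8 measured of 9 transcription genes tied to type 1 cells, 1 fell in wild-type and 2 rose in jnk1-/- lungs. Gata6, a factor of distal lung epithelium, changed by −0.997 (adjusted p = 0.0331 from limma) in wild-type and by 0.50 (adjusted p = 0.176 from limma) in jnk1-/- lungs, and the difference between these changes did not pass the threshold (adjusted p = 0.0780 from limma). After ventilation Gata6 was higher in jnk1-/- than in wild-type lungs, by 1.11 (adjusted p = 0.0398 from limma). Its probe was dim, at 3.98 to 4.80 in ventilated wild-type and 5.24 to 5.79 in ventilated jnk1-/- lungs. The call of Gata6 in wild-type lungs held in 15 of 25 alternative analyses and that between ventilated lungs in 10, with an adjusted p of 0.154 and 0.0888 when the close control pairs were averaged. Tead1, which acts with the stretch-sensitive factor YAP, rose by 0.96 (adjusted p = 0.0185 from limma) and Klf5, a factor of lung epithelium, by 1.11 (adjusted p = 0.0397 from limma) in jnk1-/- lungs. For Tead1 the jnk1-/- controls, at 9.68 to 10.45, lay below the wild-type controls at 10.85 to 11.10, without passing the threshold. Ventilated jnk1-/- lungs had Tead1 at 10.66 to 11.45. The Tead1 call held in 22 of 25 alternative analyses and the Klf5 call in 9, with an adjusted p of 0.131 for Klf5 when the close control pairs were averaged. Wild-type values of Klf5 were 9.31 to 9.60 in controls and 9.95 to 10.22 following ventilation, without overlap, a change of 0.67 (adjusted p = 0.251 from limma).

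Markers of other cells were read in the same way. For type 2 alveolar cells, 0 of 8 measured markers passed in wild-type lungs and 1 in jnk1-/- lungs, where Sftpb, a surfactant protein, fell by 1.37 (adjusted p = 0.0137 from limma), and their summed log2 level was 15.21 to 15.57 in wild-type controls and 15.23 to 15.55 following ventilation, and in jnk1-/- lungs 15.58 to 15.93 and 15.48 to 15.93. Of 3 measured lymphatic endothelial markers, cells which share Pdpn with type 1 cells, 0 passed in either genotype. The summed log2 level of these markers was nonetheless lower, at 9.53 to 9.69 in wild-type controls and 9.14 to 9.37 following ventilation. In jnk1-/- lungs it was 9.67 to 9.94 and 8.60 to 9.49. Of 4 mesothelial markers, a cell type that also has Pdpn, 1 fell in wild-type lungs, Msln, with −2.44 (adjusted p = 0.0307 from limma), and 0 in jnk1-/- lungs. Mesothelial markers summed to 9.15 to 9.31 in wild-type controls and 8.74 to 8.83 following ventilation. The jnk1-/- sums were 9.13 to 9.60 and 8.66 to 8.91. Of 4 adipocyte markers, cells rich in Cav1, 1 fell in wild-type and 2 in jnk1-/- lungs, with Adipoq at −2.70 (adjusted p = 0.0235 from limma) and −2.64 (adjusted p = 0.0119 from limma). Adipocyte markers summed to 12.85 to 13.29 in wild-type controls and 11.63 to 12.30 following ventilation. The jnk1-/- sums were 12.75 to 14.44 and 11.55 to 12.44. Smooth muscle had 0 of 6 changed in wild-type and 2 higher in jnk1-/- lungs, stomach 0 of 6 and then 1 higher and 1 lower. Squamous epithelium had 1 of 8 higher and 1 lower in wild-type lungs and 6 lower in jnk1-/- lungs, and skeletal muscle 0 of 7 and then 7 lower. With the close control pairs averaged the adjusted p was 0.0627 for Sftpb, 0.137 for Msln, and 0.0861 and 0.0679 for Adipoq. The part of these cells in the values of Pdpn and Cav1 was not tested.

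The genes whose pattern over the 14 arrays was most like that of Ager were found by the mean absolute difference of log2 values, each centred on its own mean. They were Pdlim1 (0.162), Arpc4 (0.194), F11r (0.216), Tpm3 (0.218) and Ergic3 (0.222), against a median of 0.588 over the 13923 named genes. Cldn18 was the nearest of the other measured type 1 cell genes, at 0.307 and rank 285. Clic5, Cav1 and Cav2 were at 0.409, 0.416 and 0.479. Pdpn (0.702) and Akap5 (0.716) were less like Ager than the median gene. Arrays share their RNA and normalization over all genes, and this order is a description.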

How the data were processed

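RNA of 14 lungs was labelled through biotinylated cRNA, stained with Cy5-streptavidin and read on CodeLink UniSet I 20K mouse arrays. The authors deposited log2 intensities of each array, not normalized between arrays (array medians 4.98 to 6.37, lowest value −6.861), and a log2 table normalized by cyclic loess, with 24.5% of its values at its floor of 3.122. No source used here names the scanner software. From the values of single arrays, pairwise cyclic loess (span 0.7, 3 iterations, lowest value left out of the curves) was computed, with a floor at −0.627, the 1st percentile. Array medians were then 5.76 to 5.85, and values correlated with the authors' at 0.990 or more. The authors' table was kept as an alternative.

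Genes were matched by symbol or older synonym, and a gene was counted by its brightest probe over all arrays. Group means were fitted with limma 3.58.1 in R 4.3.3, with Benjamini-Hochberg adjustment over 19621 probes and a threshold of 0.05, after the script was tested on simulated data. Groups came from the sample titles. No label says that replicates came from separate litters or days, so p-values measure the spread between these animals. Alternatives were other normalizations, the filter on dim probes, other variance settings, the methods' t-test, the replicate block, other probes and leaving out each array. Leaving out an array of a group not compared moves no estimate, and such fits are in every count of alternatives that held. The type 1 cell genes and all lists were chosen with earlier results of these data known. From each list of related genes up to 4 genes with the lowest adjusted p among those past the threshold were named. Aqp5, Cdh5, Cavin1, Cavin4 and Clic6 were named outside this rule. From the marker lists only Kdr, Clec14a, Sftpb, Msln, Adipoq and S100a8 were named among those past the threshold, and the rest were counted. They include Cidec, an adipocyte marker with a lower adjusted p in jnk1-/- lungs than Adipoq (0.00106 against 0.0119 from limma). Summed levels are log2 of the sum of the markers' linear intensities. Promoter windows are from RefSeq.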

Additional observations from a re-analysis of the deposited data

Results flagged for a closer look

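Wild-type ventilated replicate 3 stood apart for Akap5, the anchoring protein of protein kinase A. Its log2 intensity was 7.35, the next lowest of the 4 ventilated wild-type lungs was at 8.11 and the highest at 8.18, so that the gap took up 0.915 of the group's range, above Dixon's 95% critical value for a group of this size. Over all probes of type 1 cell genes 22 groups of 4 arrays were examined and 1 was found, and chance gives about 1 in 20. Without this array the fall of Akap5 in wild-type lungs was −1.38 on the log2 scale (adjusted p = 0.0176 from limma).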

How the results depend on the processing

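Over 25 alternative analyses the change of Akap5 in wild-type lungs ran from −1.66 to −1.38 and passed the threshold in 24, and in jnk1-/- lungs from −1.20 to −0.787 (adjusted p = 0.00621 to 0.228 from limma), passing in 17. The median change of the 7 genes ran from −0.52 to −0.36 in wild-type and from −0.55 to −0.35 in jnk1-/- lungs. The causes of the changes listed here were not tested. Of 7 genes in jnk1-/- lungs, where 1 had passed, the authors' normalized values gave 3 (Cldn18, Clic5 and Akap5), leaving out dim probes 2 (Cav2 and Akap5), array weights 3 and a trended, robust variance 3 (each Pdpn, Cav2 and Akap5). Over all probes these settings called 2955, 2962, 3777 and 3104 in jnk1-/- lungs, against 2305 in the analysis above. Fitting only the arrays compared gave 0, averaging the close control pairs 0 (chosen after seeing the data) and the methods' t-test 0, the last also 0 in wild-type lungs. In jnk1-/- lungs the fit on only the arrays compared called 651 probes, and the replicate block described below 1249. The methods' t-test called 55 probes there and 9 in wild-type lungs, here on this normalization and without the study's quality filter. The study's own list of changed genes holds Mmp8 and Msln, so these counts do not repeat its result. Leaving out 1 replicate gave 0 to 2. No label says that the replicate numbers pair the samples, and same-numbered samples correlated at −0.044 to 0.076 in their deviations. Such correlations cannot show whether same-numbered mice shared a day. With the replicate number as a block, 0 genes passed in jnk1-/- lungs (Akap5 −0.99, adjusted p = 0.0514 from limma), Akap5 passed in wild-type lungs, and the related genes called were 3 in wild-type and 7 in jnk1-/- lungs.

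The related genes called, 10 in wild-type and 15 in jnk1-/- lungs, were 0 and 0 by the methods' t-test, 5 and 3 with only the arrays compared, 2 and 5 with the close pairs averaged, and 2 to 10 and 6 to 16 when 1 replicate was left out. Over all settings the probes called were 9 to 2243 in wild-type lungs (719 in the analysis above), 55 to 3777 in jnk1-/- lungs (2305), 2 to 2162 between controls (791), 17 to 243 between ventilated lungs (103) and 20 to 344 for the difference of the responses (74).

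Sign changes concerned values that had not passed the threshold. The difference of responses of Cldn18 became 0.0094 with fast cyclic loess and 0.015 with array weights, and that of Ager −0.082 with the close pairs averaged. The difference of Cav2 between ventilated genotypes became −0.0015 with quantile normalization and −0.062 with array weights. The dimmer Cav2 probe gave 0.15 for ventilation in jnk1-/- lungs, −0.32 between controls and 0.54 for the difference of responses. The other Clic5 probes gave −0.098 and −0.088 between controls, and 1 of them −0.038 between ventilated lungs. When 1 replicate was left out, the change of Ager in jnk1-/- lungs ran from −0.36 to 0.036. Between controls Pdpn ran from −0.57 to 0.025, Cav1 from −0.33 to 0.015 and Clic5 from −0.034 to 0.14. Between ventilated lungs Cav2 ran from −0.14 to 0.14, Clic5 from −0.0093 to 0.14 and Akap5 from −0.16 to 0.13. For the difference of responses Ager ran from −0.10 to 0.30, Cldn18 from −0.087 to 0.085 and Clic5 from −0.069 to 0.11. With 3 or 4 arrays per group, their number limits the precision.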
